A study of Homo sapiens with 12 samples.

Results

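The transcripts of the mitochondrial genome were followed through 2 hours of TNF treatment in HL-60/S4 cells. The set was every row of the deposited gene count table placed on chrM, which gave 37 genes of the 58288 in the table. They were 13 mRNAs, 2 rRNAs and 22 tRNAs, and measured values played no part in the choice.

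The human mitochondrial genome is a small circle that is transcribed from both strands into long precursors. Most of its mRNAs and tRNAs and both rRNAs are read from the heavy strand, and the tRNAs lie between the other genes, so that cutting the tRNAs out of a precursor also frees the mRNAs and rRNAs beside them. All of its mRNAs encode subunits of the respiratory chain or of ATP synthase, which work together with many subunits made from nuclear genes. Here 28 of the genes were heavy-strand transcripts and 9 were light-strand transcripts, namely MT-ND6 and 8 tRNAs. MT-ND6, MT-ND1 to MT-ND5 and MT-ND4L encode subunits of complex I, MT-CYB one of complex III, MT-CO1 to MT-CO3 those of complex IV, and MT-ATP6 and MT-ATP8 those of ATP synthase (complex V).

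HL-60/S4 is a human myeloid leukaemia cell line that grows as promyelocytes, the early precursors of granulocytes. Promyelocytes were left undifferentiated, and granulocytes were the same cells after 4 days in 1 µM all-trans retinoic acid (ATRA). Each was given 16 ng/mL TNF or an equal volume of water (vehicle) for 2 hours in medium with added calcium, with 3 libraries in each of the 4 groups, all labelled as passage 8. Each cell type was treated in a run of its own, a difference between cell types cannot be told apart from one between runs, and no level was tested between them. All cells were of 1 line. The study's methods describe 3 treatments per condition with the cells lysed flask by flask, and the labels tie no library to a flask, so p-values reach no further than these libraries.

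The 12 libraries held between 22829189 and 31895061 read pairs assigned to genes. Known TNF targets rose in both cell types: TNFAIP3, an early target of NF-κB, rose by 3.63 ± 0.06 (log2 fold change ± SE) in promyelocytes and by 5.08 ± 0.06 in granulocytes, and VCAM1, TNF and NFKBIA also rose in both. The summed level of 7 genes of granulocytic differentiation was 157 to 165 CPM (read pairs of a gene scaled to a common library size) in promyelocytes with vehicle and 266 to 283 with TNF, where 2 of the 7 were called higher and 1 lower. In granulocytes it was 4859 to 5146 with vehicle and 5361 to 5666 with TNF, where 2 of the 7 were called higher and 3 lower. That of 5 azurophil granule genes, which mark promyelocytes, was 7355 to 7968 CPM in promyelocytes with vehicle and 6125 to 7019 with TNF, where 3 of the 5 were called lower, and 2134 to 2359 and then 2140 to 2326 in granulocytes. Their part in the chrM results was not tested. Of 5 monocyte and macrophage genes, the sum stayed at or under 0.500 CPM in every library. Same-group libraries differed by more than sampling noise, with a mean chi-square per gene between 3.59 and 14.1, so none was a copy of another.

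The sequences below are the 2 short mRNAs whose ends are shared with the next gene, printed because they are among the genes that moved most with TNF and because read pairs over a shared stretch belong to neither gene in this count. They are read from hg38 as DNA in the sense of the transcript, 5′ to 3′, and the capitals mark the shared bases. MT-ATP8 lies at chrM:8366-8572 on the plus strand, with its last 46 bases inside MT-ATP6. MT-ND4L lies at chrM:10470-10766 on the plus strand, with its last 7 bases inside MT-ND4.
MT-ATP8: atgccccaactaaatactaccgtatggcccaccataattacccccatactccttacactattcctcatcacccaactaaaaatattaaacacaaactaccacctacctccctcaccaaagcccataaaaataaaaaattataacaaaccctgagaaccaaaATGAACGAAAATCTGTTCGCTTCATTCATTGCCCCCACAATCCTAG
MT-ND4L: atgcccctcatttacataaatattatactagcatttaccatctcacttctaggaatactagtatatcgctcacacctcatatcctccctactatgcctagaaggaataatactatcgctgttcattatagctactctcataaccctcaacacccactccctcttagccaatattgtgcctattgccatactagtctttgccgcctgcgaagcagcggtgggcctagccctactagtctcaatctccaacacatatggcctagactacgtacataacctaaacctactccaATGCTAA

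A further 4 genes, all tRNAs, are shown because results described below turn on them, again from hg38 in the sense of the transcript, with the anticodon in capitals. MT-TT (tRNA for threonine, chrM:15888-15953, plus strand) and MT-TP (tRNA for proline, chrM:15956-16023, minus strand) are neighbours on opposite strands, each called in 1 cell type in every fit without 1 library. MT-TA (tRNA for alanine, chrM:5587-5655) and MT-TE (tRNA for glutamate, chrM:14674-14742) are on the minus strand and are examples of sparse tRNAs with a large fold change in granulocytes, lost in some of those fits.
MT-TT: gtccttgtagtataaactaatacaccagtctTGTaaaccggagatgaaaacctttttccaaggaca
MT-TP: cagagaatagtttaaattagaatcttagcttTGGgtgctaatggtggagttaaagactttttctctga
MT-TA: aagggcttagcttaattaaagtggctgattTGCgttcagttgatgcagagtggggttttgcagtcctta
MT-TE: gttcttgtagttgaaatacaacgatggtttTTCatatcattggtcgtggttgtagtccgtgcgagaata

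Nearly all read pairs on the mitochondrial genome fell on its mRNAs, which took 99.8 to 99.9% of them in each library. The tRNAs took 0.136 to 0.200% of chrM read pairs. Each tRNA gene is shorter than a read, and whether these pairs came from tRNAs already cut out or from longer precursors was not tested. The 2 rRNAs, which make the mitochondrial ribosome and are the most abundant RNAs of the organelle in cells, were almost absent. MT-RNR1 and MT-RNR2 together had 0 to 34 read pairs in a library. The libraries were prepared with a kit that removes ribosomal RNA, and its part in these counts was not tested. A count of 0 in the shallowest library allows up to 0.131 CPM, by the limit of 3 counts. The 3 libraries with the most rRNA, of 3 different groups, held 25, 33 and 34 such read pairs. Neither rRNA passed the filter on low counts within a cell type, so neither was tested there as a gene. The share of the 2 together overlapped between vehicle and TNF in both cell types. An exact permutation test gave p = 0.70 in promyelocytes and 0.80 in granulocytes (adjusted p = 0.96 for each). MT-TV and MT-TL1, the tRNA genes that flank MT-RNR2, had 0 read pairs in all 12 libraries, MT-TF beside MT-RNR1 had at most 7, and MT-TC had at most 10. After the filter on low counts, 31 genes were tested in each cell type, made up of all 13 mRNAs and 18 tRNAs.

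In promyelocytes the share of assigned read pairs on chrM mRNAs was lower with TNF. The 3 vehicle libraries held 6.15%, 6.27% and 6.24% and the 3 TNF libraries 5.85%, 5.70% and 5.83%. The groups did not overlap, and the mean difference was -0.425 percentage points. An exact permutation test (two-sided, 3 against 3) gave p = 0.10, the smallest p that this design allows, and 0.30 after Benjamini-Hochberg adjustment over 6 tests of class shares. Counting error was small beside these differences, with a 95% exact binomial interval of at most ± 0.0102 percentage points for any library's mRNA share. Intervals and limits of this kind cover counting error only.

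In granulocytes the mRNA shares overlapped. The vehicle libraries held 5.71%, 6.0% and 6.34% and the TNF libraries 6.96%, 6.14% and 5.66%, so that the TNF group had both the highest and the lowest library. The mean difference was 0.235 percentage points (exact permutation p = 0.70, adjusted p = 0.96), and it was -0.118 without TNF replicate 1, the library with the highest share. Per 100 nuclear read pairs scaled by the trimmed mean of M values (TMM) on nuclear genes, the chrM mRNA level was 6.12 ± 0.37 (SD, n = 3) with vehicle and 6.99 ± 0.87 (n = 3) with TNF, and the groups still overlapped (exact permutation p = 0.20). TMM scales a library by the typical gene and not by its total. The TMM factors of granulocytes were 1.035 to 1.057 with vehicle and 0.940 to 0.972 with TNF, so that shares of the total and TMM-scaled levels differ there, while in promyelocytes all factors lay between 0.986 and 1.02.

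The share on chrM tRNAs was higher with TNF in granulocytes. It was 0.00885%, 0.00965% and 0.00861% with vehicle and 0.0109%, 0.0114% and 0.0114% with TNF. The granulocyte groups did not overlap (exact permutation p = 0.10, adjusted p = 0.30). In promyelocytes the tRNA share was 0.00990%, 0.0106% and 0.0107% with vehicle and 0.00799%, 0.0114% and 0.0115% with TNF, where TNF replicate 1 was below and the other two TNF libraries above every vehicle library (exact permutation p = 1.0).

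**Figure D1:**
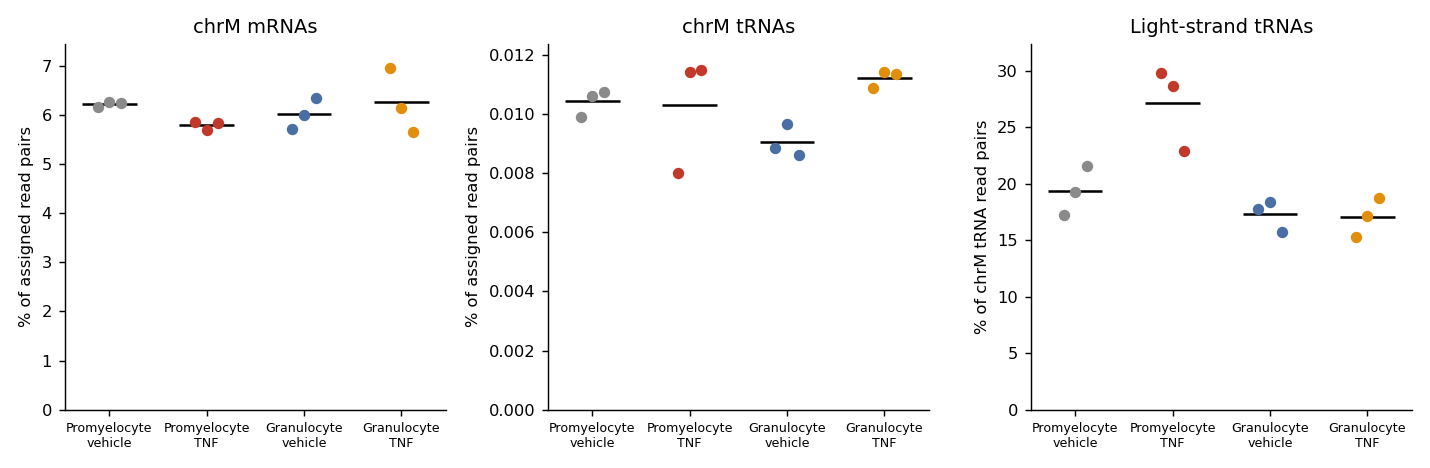
Shares by library in the 4 groups. Left and centre, the percent of assigned read pairs on chrM mRNAs and on chrM tRNAs; right, the percent of chrM tRNA read pairs that fell on light-strand tRNAs; points are libraries and lines are means of 3. The promyelocyte mRNA shares with TNF (5.70 to 5.85%) sit below those with vehicle (6.15 to 6.27%), and the granulocyte tRNA shares with TNF sit above those with vehicle.

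Levels of the mRNAs differed widely from gene to gene, although 12 of the 13 come from the same strand. Per length, as CPM per kilobase, the vehicle promyelocytes were led by MT-CO3 at 12840 ± 488 (SD, n = 3), followed by MT-CO2 at 8822 ± 280, MT-ATP6 at 8327 ± 235 and MT-CO1 at 7874 ± 189. The middle of the order was MT-ND4 at 5806 ± 101, MT-ND2 at 4760 ± 50, MT-ND1 at 4466 ± 102 and MT-CYB at 3268 ± 104. The lowest heavy-strand mRNAs were MT-ND5 at 2631 ± 38, MT-ND3 at 2618 ± 265, MT-ND4L at 2519 ± 63 and MT-ATP8 at 2359 ± 63. MT-ND6, the only light-strand mRNA, was last at 288 ± 68, which is 44.6-fold below MT-CO3. Neighbours in this order had library ranges that did not overlap, except MT-ND5 with MT-ND3 and MT-ND3 with MT-ND4L. The length used for MT-ATP8 (207 bases) includes its shared 46 bases, and MT-ATP6 and MT-ND4 share those and 7 bases likewise. Read pairs over both genes of such a couple are left out of these levels, and the part of this in the order was not tested.

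The vehicle granulocytes had another order at its top. MT-CO1 led at 10740 ± 403 CPM per kilobase and MT-CO3 came next at 9786 ± 427, with ranges that did not overlap. MT-ND6 was again last, at 182 ± 23, which is 58.9-fold below MT-CO1. MT-CO1 made up 28.1 to 29.6% of chrM mRNA read pairs in vehicle granulocytes and 19.3 to 20.1% in vehicle promyelocytes. CPM was scaled within each cell type, and these cell types were separate experiments, so the values are set side by side only.

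**Figure D2:**
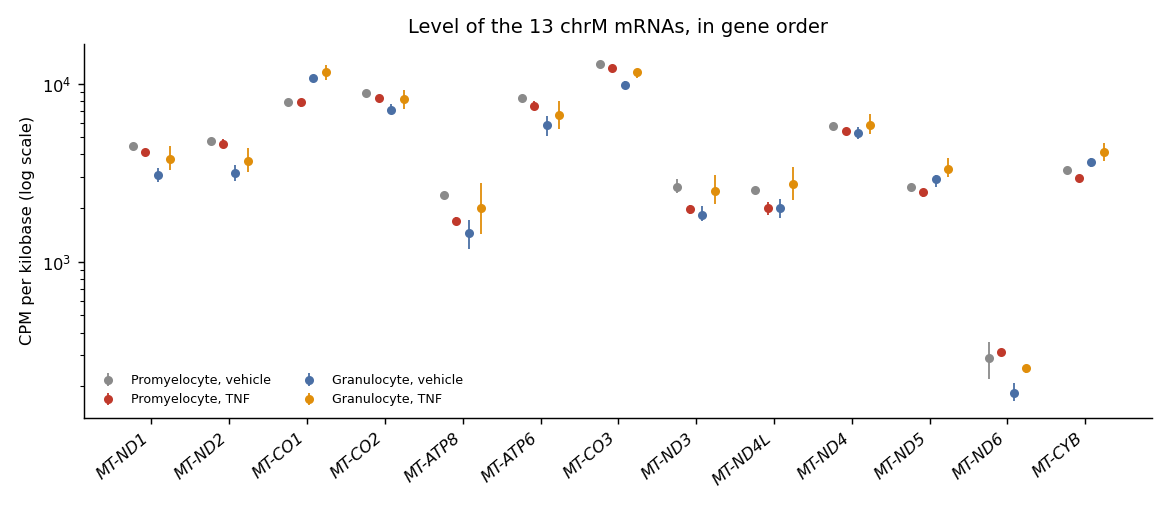
Level of each of the 13 chrM mRNAs, in gene order along the genome, in CPM per kilobase on a log axis. Points are means of 3 libraries and bars run from the lowest to the highest library; MT-ND6 lies far below the other 12 in all 4 groups, and MT-CO3 leads in promyelocytes while MT-CO1 stands above it in vehicle granulocytes.

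In promyelocytes TNF lowered 3 mRNAs and raised 1 tRNA among the 31 genes tested (edgeR quasi-likelihood test, adjusted p under 0.05 over all 16250 genes tested in promyelocytes; the same test and threshold apply below). The 3 mRNAs were MT-ATP8, MT-ND3 and MT-ND4L, which are the only chrM mRNAs of at most 400 bases. Over all genes, 6.65% were called lower and 8.15% higher, 14.8% in either direction, beside 4 of the 31 chrM genes. The median log2 fold change of the 31 was -0.10, beside -0.01 over all genes. All 12 heavy-strand mRNAs had a negative log2 fold change, down to -0.48, although that of MT-CO1 was near 0 and turned positive with DESeq2 and with no filter. Of the 37 genes, 31 passed the filter, and these counts are over them only. Of all 31, 12 did not overlap between groups, 11 below and 1 above, beside 31.1% of all genes, and 9 of the 13 mRNAs had all TNF libraries below all vehicle libraries, a separation found in that direction for 15.1% of all genes tested.

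MT-ATP8, a small subunit of ATP synthase, had 497, 473 and 495 CPM in the vehicle promyelocytes and 349, 331 and 370 CPM with TNF. Every TNF library was below every vehicle library, and the log2 fold change was -0.48 ± 0.06 (SE; adjusted p = 4.8e-06). MT-ND3, a subunit of complex I, had 1011, 845 and 862 CPM with vehicle and 644, 715 and 698 CPM with TNF, a log2 fold change of -0.40 ± 0.07 (adjusted p = 0.00031). MT-ND4L, also of complex I, had 763, 727 and 755 CPM with vehicle and 645, 545 and 602 CPM with TNF, a log2 fold change of -0.32 ± 0.06 (adjusted p = 0.0011). All 3 were called under each of the 10 other settings and each of the 6 fits without 1 library.

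The partners with which these mRNAs share bases did not pass the test. MT-ATP6 had a log2 fold change of -0.15 ± 0.06 (adjusted p = 0.12) and MT-ND4 one of -0.10 ± 0.06 (adjusted p = 0.32). Per 100 read pairs of MT-ATP6, MT-ATP8 had 9.03, 8.32 and 8.49 with vehicle and 6.38, 6.87 and 7.32 with TNF. Per 100 read pairs of MT-ND4, MT-ND4L had 9.65, 8.91 and 9.51 with vehicle and 8.38, 7.68 and 7.86 with TNF. Neither pair of groups overlapped (exact permutation p = 0.10 for each, adjusted p = 0.24 over 12 ratio tests). Each short gene thus had fewer counted read pairs against its partner in every TNF library than in any vehicle library. Pairs over both genes of a couple are left out of the counts, and the part of this in the ratios was not tested.

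The remaining 10 mRNAs had log2 fold changes from -0.15 to 0.11 with adjusted p between 0.11 and 0.99. MT-CYB, the mRNA of cytochrome b, was nearest to the threshold at -0.15 ± 0.06 (adjusted p = 0.11), with 3817, 3774 and 3593 CPM with vehicle and 3203, 3426 and 3483 CPM with TNF. MT-CO1 was the least moved at -0.00 ± 0.06, and it was 12120, 12440 and 11860 CPM with vehicle and 11440, 12460 and 12460 CPM with TNF. The only positive value was that of MT-ND6, at 0.11 ± 0.11 (adjusted p = 0.54), and its vehicle libraries were spread over 115, 152 and 186 CPM while the TNF libraries lay at 164, 169 and 157 CPM.

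The tRNA called in promyelocytes was MT-TP, the tRNA for proline and the last gene of the set along the genome. It had 10.4, 13.2 and 15.2 CPM with vehicle and 17.4, 23.7 and 19.2 CPM with TNF, so that the groups did not overlap. The log2 fold change was 0.64 ± 0.12 (adjusted p = 0.0011), and it was called in each of the 6 fits without 1 library and under each of the 10 other settings. MT-TT, its neighbour on the other strand, had 24.6, 24.4 and 24.98 CPM with vehicle and 15.5, 27.7 and 26.1 CPM with TNF, and no call (-0.09 ± 0.14, adjusted p = 0.73). The 17 tRNAs that were not called, MT-TT among them, had log2 fold changes from -0.54 to 0.42 with SEs of 0.11 to 0.41. At 8 to 821 read pairs in a promyelocyte library, changes of that size could not be resolved for the sparser ones.

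MT-TP is a light-strand tRNA and held most of the light-strand tRNA read pairs of promyelocytes. The part of tRNA read pairs that fell on the light-strand tRNAs was 17.2%, 19.2% and 21.5% with vehicle and 29.8%, 28.7% and 22.9% with TNF in promyelocytes, without overlap (exact permutation p = 0.10, adjusted p = 0.24). MT-TP carried most of this: the other light-strand tRNAs together had 6.77, 7.06 and 7.74 CPM, without TMM scaling, with vehicle and 6.28, 9.38 and 7.40 with TNF, and these groups overlapped. In TNF replicate 1, which had the highest part, the heavy-strand tRNAs were at 56.1 CPM on that scale, beside 81.5 to 88.6 in the other promyelocyte libraries. Of the 7 light-strand tRNAs tested, 5 had positive and 2 negative log2 fold changes, with a median of 0.20, beside -0.12 for the 11 heavy-strand tRNAs tested. MT-TP was the 1 gene called among them. In granulocytes the same part was 17.8%, 18.4% and 15.7% with vehicle and 15.3%, 17.1% and 18.7% with TNF, with overlapping groups (exact permutation p = 0.80). This grouping of tRNAs by strand was made with values of these data known.

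In granulocytes TNF raised 19 of the 31 chrM genes tested; edgeR called 0 lower, as did DESeq2, and 0 were lower at an unadjusted p under 0.05. The genes raised were 10 of the 13 mRNAs and 9 of the 18 tRNAs. Whether the pairs counted on those tRNAs came from tRNAs already cut out was not tested. Over all 16944 genes tested in granulocytes 49.2% were called, 24.4% higher and 24.8% lower, so that about as many genes fell as rose. The median log2 fold change of the 31 chrM genes was 0.37, beside -0.00 over all genes, and 13 of the 31 had all TNF libraries above all vehicle libraries, beside 27.3% of all genes tested in that direction and 55.2% in either. The count of 19 was 7 with DESeq2 and 11 with scaling by library totals, which puts the median of all genes at -0.13 on the log2 scale and makes 31.1% of the genes called higher ones, in place of 49.6%; it was 12 without vehicle replicate 1 and at least 14 without any other library.

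**Figure D3:**
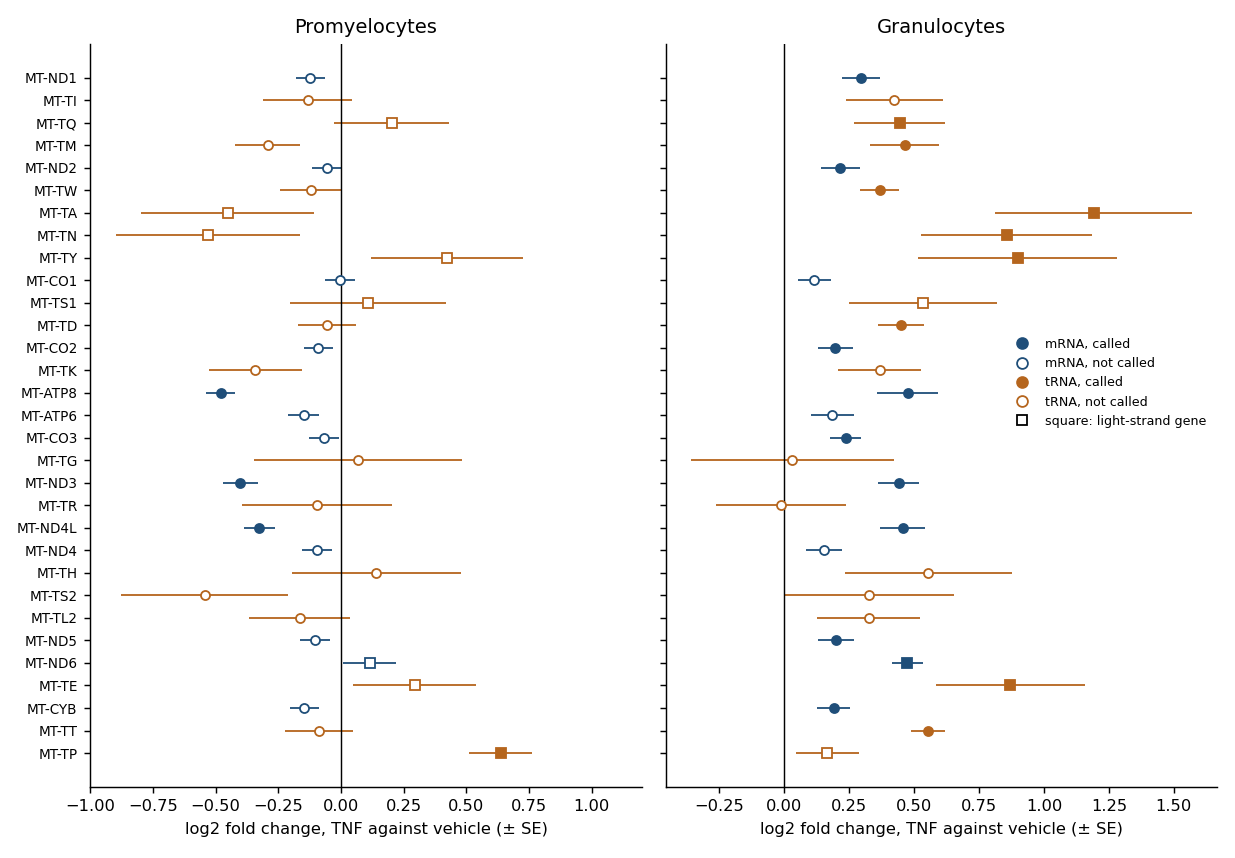
log2 fold change of TNF against vehicle for the 31 chrM genes tested, in gene order, with SE bars. Filled symbols passed the test, squares are light-strand genes; in promyelocytes 3 mRNAs lie left of 0 and MT-TP right of 0 among the filled symbols, and in granulocytes the 19 filled symbols all lie right of 0.

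MT-ND6, the light-strand mRNA of complex I, gave the firmest mRNA result in granulocytes. It had 87.0, 109 and 90.8 CPM with vehicle and 125, 138 and 136 CPM with TNF, and every TNF library was above every vehicle library. The log2 fold change was 0.47 ± 0.06 (adjusted p = 3.1e-08), called in all 6 fits without 1 library and all 10 other settings. MT-CO3, a core subunit of complex IV, had 7537, 7426 and 8053 CPM with vehicle and 9519, 9219 and 8382 CPM with TNF, a log2 fold change of 0.24 ± 0.06 (adjusted p = 0.0011) that was lost only with scaling by library totals.

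The 3 short mRNAs, which fell in promyelocytes, rose in granulocytes. MT-ND4L had 523, 588 and 670 CPM with vehicle and 1009, 775 and 658 CPM with TNF, a log2 fold change of 0.46 ± 0.09 (adjusted p = 2.5e-05). MT-ND3 had 583, 605 and 710 CPM with vehicle and 1062, 787 and 725 CPM with TNF, a log2 fold change of 0.44 ± 0.08 (adjusted p = 1.8e-05). MT-ATP8 had 246, 298 and 354 CPM with vehicle and 573, 381 and 295 CPM with TNF, a log2 fold change of 0.48 ± 0.12 (adjusted p = 0.00089). Only the MT-ND3 groups did not overlap. TNF replicate 1 was the highest and vehicle replicate 1 the lowest library for each of the 3, and without vehicle replicate 1 MT-ATP8 was no longer called, at 0.35 (adjusted p = 0.057). Without TNF replicate 1 its log2 fold change was 0.18 (adjusted p = 0.015). Per 100 read pairs of MT-ND4, MT-ND4L had 7.81, 8.00 and 8.57 with vehicle and 10.8, 9.92 and 9.17 with TNF, without overlap (exact permutation p = 0.10, adjusted p = 0.24), while MT-ATP8 per 100 of MT-ATP6 overlapped. DESeq2 gave adjusted p of 0.081 for MT-ND4L, 0.068 for MT-ND3 and 0.27 for MT-ATP8, with wider SEs of 0.21, 0.20 and 0.33.

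The 5 other mRNAs called were longer, with smaller fold changes. MT-ND1 had a log2 fold change of 0.29 ± 0.07 (adjusted p = 0.0011), from 2684, 2936 and 3190 CPM to 4287, 3407 and 3112 CPM. MT-ND2, MT-CO2, MT-ND5 and MT-CYB had log2 fold changes of 0.22, 0.20, 0.20 and 0.19 with adjusted p between 0.014 and 0.017, and each lost its call without vehicle replicate 1 and without TNF replicate 1. Values that did not pass were those of MT-ATP6 at 0.18 ± 0.08 (adjusted p = 0.062), MT-ND4 at 0.15 ± 0.07 (adjusted p = 0.072) and MT-CO1 at 0.12 ± 0.06 (adjusted p = 0.14). MT-CO1, the most abundant per length, was 15980, 16470 and 17220 CPM with vehicle and 19640, 17920 and 16230 CPM with TNF, so the groups overlapped.

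Among the tRNAs of granulocytes MT-TT had the firmest result. It had 24.0, 24.9 and 24.96 CPM with vehicle and 35.1, 38.7 and 34.3 CPM with TNF, a log2 fold change of 0.55 ± 0.07 (adjusted p = 6.8e-09) that was called in all fits without 1 library and all 10 other settings. MT-TP beside it had 8.01, 10.4 and 7.05 CPM with vehicle and 8.32, 10.0 and 10.2 CPM with TNF and no call (0.17 ± 0.12, adjusted p = 0.27).

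The other heavy-strand tRNAs called were MT-TW, MT-TD and MT-TM, the tRNAs for tryptophan, aspartate and methionine. MT-TW had 17.7, 18.1 and 17.3 CPM with vehicle and 22.3, 22.6 and 23.7 CPM with TNF, a log2 fold change of 0.37 ± 0.07 (adjusted p = 7.6e-05). MT-TD rose by 0.45 ± 0.09 and MT-TM by 0.46 ± 0.13 on the log2 scale (adjusted p = 4.5e-05 and 0.0036). None of these groups overlapped.

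Of the 7 light-strand tRNAs tested in granulocytes 5 were called, from few read pairs. MT-TA had the largest log2 fold change of the set, 1.19 ± 0.38 (adjusted p = 0.0090), from 0.423, 0.367 and 0.405 CPM to 0.850, 1.18 and 0.677 CPM, on 11 to 33 read pairs in a library over the whole series. MT-TE, the tRNA for glutamate, rose by 0.87 ± 0.29 (adjusted p = 0.011). MT-TN, MT-TY and MT-TQ, the tRNAs for asparagine, tyrosine and glutamine, were at 0.86 ± 0.33, 0.90 ± 0.38 and 0.44 ± 0.18 with adjusted p of 0.029, 0.0497 and 0.035. Of the 6 fits without 1 library, MT-TY was called in 0, MT-TN in 2, MT-TQ in 3, MT-TE in 4 and MT-TA in 5. The 9 tRNAs that were not called had log2 fold changes from -0.01 to 0.55.

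Short nuclear genes had a median above 0 in granulocytes too. Of 294 nuclear genes of at most 100 bases, 54 were called higher and 6 lower, beside 24.4% and 24.8% over all genes, with a median log2 fold change of 0.27, beside 0.45 for the 18 chrM tRNAs. In promyelocytes 274 such genes had a median of 0.14, beside -0.09 for the tRNAs. When trends with GC content and length, drawn from nuclear genes, were removed in each library, 1 tRNA (MT-TT) was called higher in granulocytes in place of 9, and the tRNA median became 0.09. For MT-TW the log2 fold change became 0.03 (adjusted p = 0.74) and for MT-TA 0.82 (adjusted p = 0.069).

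For the mRNAs the same correction did not lower the number of calls. In granulocytes 12 of the 13 mRNAs were then higher, with a median of 0.25, and in promyelocytes 5 were lower, MT-ATP6 and MT-CYB joining the 3 short ones, with a median of -0.14. The 16 nuclear protein-coding genes longer than 200 and of at most 400 bases had a median log2 fold change of -0.06 in promyelocytes and 0.14 in granulocytes, with 9 called higher and 1 lower. The corresponding medians of the 3 short chrM mRNAs were -0.40 and 0.46. RN7SL2, a short structured RNA of the signal recognition particle, rose by 1.36 ± 0.10 in granulocytes (adjusted p = 1.5e-14) and was at 0.16 ± 0.24 in promyelocytes. The part of gene length and GC content in the results of the short genes was not tested beyond these values.

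**Figure D4:**
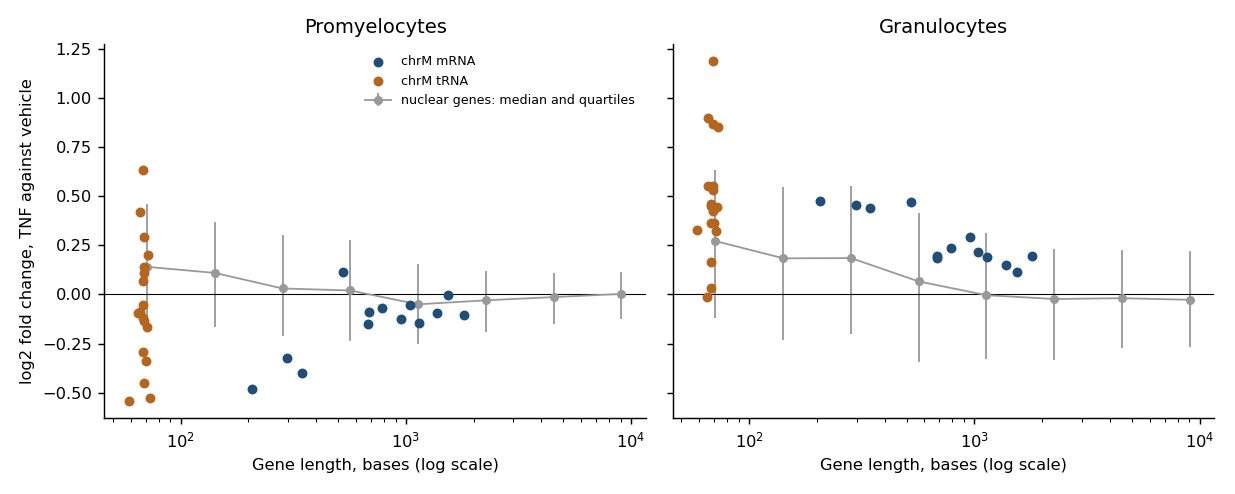
log2 fold change of TNF against vehicle by gene length in bases (log axis) in each cell type. Grey points and bars are the median and quartiles of nuclear genes in bins of length, and coloured points are chrM mRNAs and tRNAs; the 3 shortest mRNAs lie at -0.48 to -0.32 in promyelocytes and at 0.44 to 0.48 in granulocytes, and in granulocytes the nuclear median also climbs towards short genes.

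The difference between the cell types was tested in a model over all 12 libraries, as the TNF response of granulocytes minus that of promyelocytes. This signed difference was called above 0 for 18 of the 32 chrM genes tested and below 0 for 0 (edgeR; 0 with DESeq2 too, and 1 at an unadjusted p under 0.05, MT-TP), beside 14.1% of all 18124 genes called higher and 9.88% lower, 24.0% in either direction. All of the 18 but MT-ND6 had a negative log2 fold change in promyelocytes and a positive one in granulocytes. Only MT-ATP8, MT-ND3 and MT-ND4L of them were called lower in promyelocytes. The gene tested here and not within a cell type was MT-RNR2, at 3.93 ± 1.96 (adjusted p = 0.15), on the few read pairs given above. With library totals the count above 0 was 10, with DESeq2 it was 12, and with DESeq2 size factors in edgeR it was 14. MT-ATP8, MT-ND3 and MT-ND4L led the mRNAs at 1.00 ± 0.20, 0.88 ± 0.14 and 0.82 ± 0.14 (adjusted p = 0.00036, 3.0e-05 and 8.9e-05), and each was called in all 12 fits without 1 library and all 9 other settings. MT-CO3, MT-CYB and MT-TT were likewise called in all of them, at 0.34 ± 0.09, 0.37 ± 0.10 and 0.68 ± 0.17. For MT-ND6 the difference was 0.40 ± 0.14 (adjusted p = 0.041), and it was called in 5 of the 12 fits without 1 library. MT-TP was the lowest at -0.44 ± 0.19 (adjusted p = 0.11), and it was called lower under 4 of the 9 other settings. Cell type and run cannot be told apart in these values either.

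The make-up of the mRNA pool was compared as the share that each mRNA held. In promyelocytes MT-ATP8 was 0.795%, 0.766% and 0.804% of chrM mRNA read pairs with vehicle and 0.601%, 0.574% and 0.627% with TNF. MT-ND3 was 1.37 to 1.62% with vehicle and 1.11 to 1.24% with TNF, and MT-ND4L was 1.18 to 1.23% with vehicle and 0.944 to 1.11% with TNF. These were the 3 of 13 mRNAs whose groups did not overlap (exact permutation p = 0.10 for each, adjusted p = 0.37 over 26 tests).

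In granulocytes 4 mRNAs had shares that did not overlap, and MT-ATP8 was not among them. MT-CO1 was 29.6%, 28.7% and 28.1% of chrM mRNA read pairs with vehicle and 26.5%, 27.9% and 27.9% with TNF, a difference of -1.37 percentage points. MT-ND1 was 4.97 to 5.20% and then 5.29 to 5.79%, MT-ND3 1.05 to 1.16% and then 1.22 to 1.43%, and MT-ND4L 0.968 to 1.09% and then 1.13 to 1.36% (exact permutation p = 0.10 for each, adjusted p = 0.37). MT-CYB kept nearly the same share in all granulocyte libraries, between 7.14 and 7.21%. MT-ND6 was 0.161%, 0.191% and 0.148% with vehicle and 0.169%, 0.214% and 0.233% with TNF, with overlap (exact permutation p = 0.20).

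**Figure D5:**
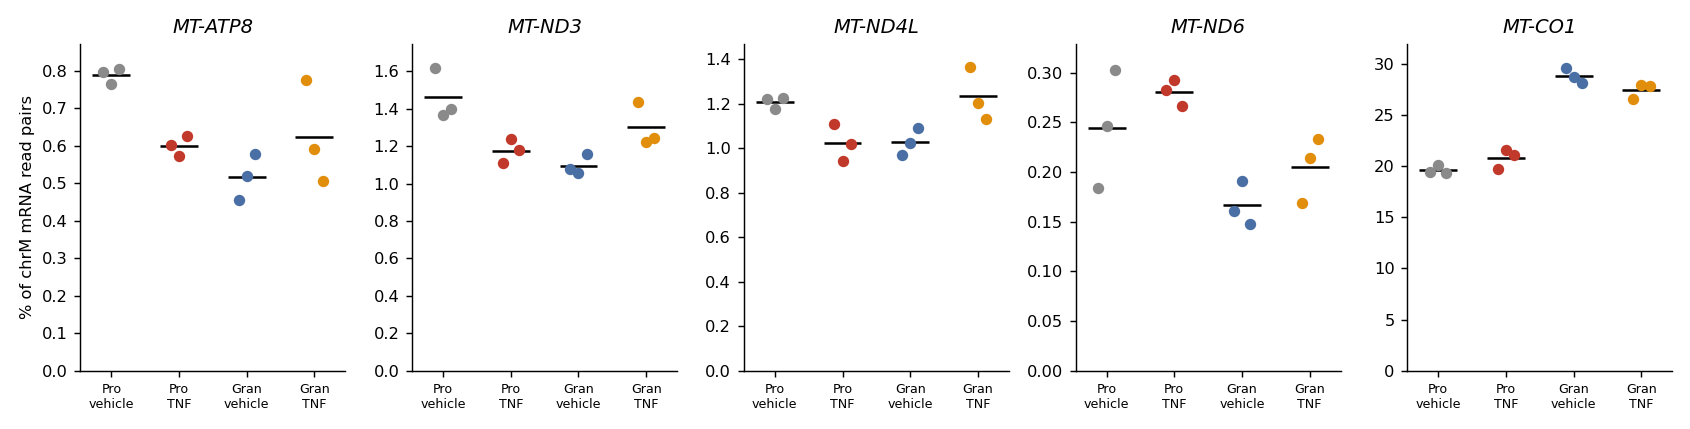
Share of chrM mRNA read pairs held by 5 mRNAs in each library, by group (Pro, promyelocyte; Gran, granulocyte), with the mean of 3 as a line. MT-ATP8, MT-ND3 and MT-ND4L sit lower with TNF in promyelocytes, MT-ND3 and MT-ND4L higher in granulocytes, and MT-CO1 lower with TNF in granulocytes.

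Copies of mitochondrial genes in the nuclear genome can take reads from them. The table held 404 pseudogenes named for a chrM gene, and these had 1.79 to 2.69 read pairs for every 100 on chrM, of which 92.4 to 96.1% were on the 3 most covered. The largest was MTND2P28 on chromosome 1, with 13.3 to 23.1 read pairs per 100 of MT-ND2. MTATP6P1, also on chromosome 1, had a log2 fold change of -0.52 ± 0.11 in promyelocytes and 0.70 ± 0.11 in granulocytes (adjusted p = 0.0028 and 1.4e-06), in the same directions as MT-ATP8. Reads of a copy and of its parent may be split between them by the aligner, so the values of MT-ND2, MT-CO1 and MT-ATP6 are uncertain to that extent. Adding the copies to their parents gave 4 called genes in promyelocytes, as before, and 20 in granulocytes.

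Nuclear genes that serve mitochondrial gene expression or encode subunits of complexes I, III, IV and V were counted in 10 lists. The lists held 235 genes in all, of which 231 were tested in each cell type. In promyelocytes 6 were called higher and 7 lower, with a median log2 fold change of -0.01, as over all genes, which is a smaller share than the 14.8% called over all genes. In granulocytes 59 were higher and 54 lower, close to the 49.2% called over all genes, and with library totals 28 were higher and 94 lower.

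Among genes of mitochondrial transcription, 2 of 9 tested rose in promyelocytes, beside 8.15% of all genes, and 1 was higher with library totals. TFAM, which packs mitochondrial DNA and starts its transcription, rose by 0.20 ± 0.06 (adjusted p = 0.034) and MTERF1, a factor that binds downstream of the rRNA genes, by 0.29 ± 0.09 (adjusted p = 0.031). These calls held in 2 and 1 of the 6 fits without 1 library. In granulocytes TFAM rose by 0.14 ± 0.05 (adjusted p = 0.035), MRPL12 fell by 0.25 on the log2 scale (SE 0.09, adjusted p = 0.019), and these calls held in 3 and 2 of the 6 fits without 1 library. DESeq2 called 0 of the 9 higher and 0 lower in granulocytes, and with library totals 0 were higher and 3 lower. The median of the list was 0.06 in promyelocytes and -0.02 in granulocytes, where 1 of the 9 rose and 1 fell, beside 49.2% of all genes called.

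Among genes that replicate and maintain mitochondrial DNA, TK2, the mitochondrial thymidine kinase, fell by 0.73 on the log2 scale in promyelocytes (SE 0.12, adjusted p = 0.00021) and by 1.01 in granulocytes (SE 0.08, adjusted p = 1.7e-13). RRM2B, a subunit of ribonucleotide reductase, and MGME1, an exonuclease of mitochondrial DNA, fell by 0.94 and by 0.62 in granulocytes (SE 0.07 and 0.06, adjusted p = 6.9e-15 and 5.3e-11). SLC25A36, a carrier of pyrimidine nucleotides, fell by 0.39 there (SE 0.06, adjusted p = 2.7e-07). The 4 genes named all fell, but over the 16 genes of the list 5 rose and 5 fell in granulocytes, beside 49.2% of all genes called, and 2 rose and 3 fell in promyelocytes, beside 14.8%. With library totals the counts were 2 higher and 7 lower in granulocytes and 0 higher and 3 lower in promyelocytes.

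Genes that process and degrade mitochondrial RNA were called in granulocytes about as often as all genes, of which 49.2% were. Of 29 genes of RNA processing and modification 6 rose and 10 fell, with a median of -0.06, and with library totals 4 were higher and 17 lower. Of 17 tested genes of RNA stability and decay 2 rose and 6 fell, with a median of -0.02, and with library totals 0 were higher and 8 lower. RPUSD3, a pseudouridine synthase, fell by 0.50 (SE 0.07, adjusted p = 7.3e-08), METTL15 by 0.42 (SE 0.08, adjusted p = 2.1e-05) and NSUN3, which modifies the methionine tRNA, by 0.35 (SE 0.07, adjusted p = 6.3e-05). NSUN4, an rRNA methyltransferase, rose by 0.31 ± 0.06 (adjusted p = 1.6e-05). FASTKD1, LACTB2, ANGEL2 and GRSF1, which act in the stability or processing of mitochondrial RNA, fell by 0.36, 0.50, 0.24 and 0.19 on the log2 scale, with adjusted p between 4.6e-07 and 0.0025. In promyelocytes 1 gene of both lists together was called, beside 14.8% of all genes, and it fell.

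Of the 72 nuclear subunits of complexes I, III, IV and V tested in granulocytes, 27 rose and 4 fell, beside 24.4% higher and 24.8% lower over all genes. Their median was 0.09, beside -0.00 over all genes. Complex II had no list. This direction turned with library totals, under which 12 were higher and 17 lower with a median of -0.04, beside -0.13 over all genes. Complex I had 14 of 37 higher and 4 lower, complex III 3 of 9 higher, complex IV 4 of 11 higher and complex V 6 of 15 higher, and with library totals these were 7 higher and 11 lower, 1 and 2, 2 and 0, and 2 and 4. ATP5ME, a small subunit of ATP synthase, rose by 0.66 ± 0.07 (adjusted p = 9.6e-11), CYC1, cytochrome c1 of complex III, by 0.38 ± 0.05 (adjusted p = 1.7e-07), NDUFA1 of complex I by 0.41 ± 0.06 (adjusted p = 1.3e-06) and COX5A of complex IV by 0.29 ± 0.05 (adjusted p = 7.1e-06). NDUFV3 of complex I fell by 0.36 (SE 0.05, adjusted p = 5.9e-07). In promyelocytes 1 of the 72 rose and 1 fell, beside 14.8% of all genes called, with a median of -0.03.

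Of the 78 genes of the mitochondrial ribosome 14 rose and 26 fell in granulocytes, beside 24.4% and 24.8% of all genes, with a median of -0.04, and with library totals 6 were higher and 38 lower. MRPL52 rose by 1.36 ± 0.06 (adjusted p = 4.4e-22), from 55.1 ± 4.3 CPM (SD, n = 3) to 142 ± 4.4 CPM, while MRPS27 and MRPS23 fell by 0.47 and by 0.48 on the log2 scale (adjusted p = 4.2e-08 and 7.6e-08). In promyelocytes 1 of the 78 was called, beside 14.8% of all genes, and it fell. Of 13 tested regulators of mitochondrial biogenesis 2 rose and 1 fell in promyelocytes, beside 14.8% of all genes called. In granulocytes 5 of these regulators rose and 3 fell, beside 49.2% of all genes called, and 4 were higher and 5 lower with library totals. MYC, a transcription factor, fell by 1.21 in promyelocytes (SE 0.06, adjusted p = 1.4e-11), from 1866 ± 89 to 805 ± 52 CPM, and was not called in granulocytes (-0.07 ± 0.06). PPRC1 and PPARGC1B, coactivators of the PGC-1 family, rose by 0.66 ± 0.06 and 0.40 ± 0.05 in granulocytes (adjusted p = 4.1e-12 and 2.5e-08), and GABPB1, a subunit of nuclear respiratory factor 2, rose by 0.50 ± 0.06 in promyelocytes and 0.51 ± 0.06 in granulocytes (adjusted p = 5.2e-06 and 5.9e-10).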

How the data were processed

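RNA was depleted of ribosomal RNA with the RiboZero Magnetic Gold kit and sequenced as read pairs. Per the labels and the study's methods, the authors aligned reads to hg38 with STAR 2.5.3a and made counts with featureCounts 1.5.2 on the GENCODE annotation. Per the file headers, the deposited counts took primary alignments with both ends mapped to 1 chromosome, in a reverse-stranded setting, so that genes on opposite strands are kept apart. Pairs that overlap more than 1 gene of a strand are left out by default, as over the stretches that neighbouring chrM genes share. DESeq2 1.16.1 is named in the submitters' processing notes. Gene lengths and coordinates are those deposited, and none of the 58288 genes passed the end of its chromosome in the genome used for sequences and GC content.

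The 12 libraries were read as raw counts and compared within each cell type, and the response was compared between cell types by an interaction term over all 12. edgeR 4.0.16 (TMM, filterByExpr with a minimum count of 10 and a minimum total of 15, quasi-likelihood test, Benjamini-Hochberg over all genes tested, threshold 0.05) was run in R 4.3.3. On simulated counts with 200 changed genes it recovered 88.5% in the promyelocyte design, with 17 false calls (8.76% of calls), and 90% in the granulocyte design, with 7 false calls (3.74%). Recovery by size of fold change, or with as many changed genes as were called here, was not tested. The edgeR test draws the spread of a gene in part from other genes. The SE given with its fold changes is the size of the log2 fold change divided by the square root of the F statistic. It is thus not the spread of that gene's own libraries alone. CPM values are scaled by TMM within a cell type. Shares and ratios were compared by exact permutation over samples (scipy). A level of 3 read pairs in a library is 0.0941 to 0.131 CPM. The alternatives were DESeq2 1.42.0, its size factors, scaling on nuclear genes, library totals, no filter, a replicate block, GC content and length trends removed by splines, nuclear copies added, all libraries in 1 fit and each library left out.

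The genes and lists were chosen with earlier results of these data known, so they are not independent evidence. Named were all mRNAs and rRNAs, the tRNAs that passed the filter (those not called by range), and from each nuclear list up to 4 called genes with the smallest adjusted p and a mean log2 CPM of at least 1. One gene of the lists (FASTKD4) had no match by symbol. The lists of T and B cell and of erythroid genes summed to at most 5.73 and 0.256 CPM in a library. Of 5 structured non-coding RNAs, 4 were listed at 0 in every library, all but RN7SL2.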

Additional observations from a re-analysis of the deposited data

Results flagged for a closer look

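The signed TNF response, granulocytes minus promyelocytes, was above 0 for 18 chrM genes by the interaction test (edgeR quasi-likelihood, adjusted p under 0.05 over all genes), and all but MT-ND6 had a negative log2 fold change in promyelocytes and a positive one in granulocytes. Among the mRNAs the differences of the log2 fold changes were 1.00 for MT-ATP8, 0.88 for MT-ND3, 0.82 for MT-ND4L, 0.46 for MT-ND1, 0.40 for MT-ND6, 0.37 for MT-CYB, 0.37 for MT-ATP6, 0.34 for MT-CO3, 0.34 for MT-ND5, 0.33 for MT-CO2 and 0.29 for MT-ND4. Among the tRNAs they were 1.68 for MT-TA, 1.42 for MT-TN, 0.79 for MT-TM, 0.74 for MT-TK, 0.68 for MT-TT, 0.54 for MT-TD and 0.52 for MT-TW. MT-TK, MT-ATP6 and MT-ND4 were called in neither cell type alone. MT-TK was at -0.34 ± 0.18 in promyelocytes and 0.37 ± 0.16 in granulocytes. Of the 18, only MT-ATP8, MT-ND3 and MT-ND4L were called lower in promyelocytes. Of the 7 tRNAs, MT-TT kept its call when GC content and length trends were removed. Promyelocyte TNF replicate 1 had the lowest CPM of the 6 promyelocyte libraries for 6 of these 7 tRNAs, all but MT-TN. Without it 18 genes were called higher, 17 of them the same, and MT-TP was called lower. Cell type and run cannot be told apart here. Groups of 3 libraries were not tested for outlying samples.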

How the results depend on the processing

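With scaling by library totals in granulocytes, 11 chrM genes were higher and the nuclear lists had 28 genes higher and 94 lower, and MT-CO1 turned to -0.01628 on the log2 scale; in promyelocytes the lists had 3 higher and 12 lower, and between cell types 10 chrM responses were higher and 1 (MT-TP) lower. The interaction then had a median of -0.12 over all genes and 30.8% of calls higher, in place of 58.9% (48.4% with DESeq2 size factors). DESeq2 called 7 chrM genes in granulocytes and 12 chrM responses higher between cell types. It put MT-CO1 in promyelocytes at 0.0009152, which was 0.004609 with no filter. With GC content and length trends removed, 5 chrM genes and 12 list genes were lower in promyelocytes. The list count of lower genes there was 15 with no filter and 15 with all 12 libraries in 1 fit. One chrM response, MT-TP, was lower between cell types with no filter (1), with GC content and length removed (1) and with that correction plus the block (1). The causes of these shifts were not tested.

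Same-numbered vehicle and TNF libraries had residual correlations of -0.23, -0.11 and -0.14 in promyelocytes and -0.10, -0.0092 and -0.12 in granulocytes. Libraries of unlike number reached 0.23 in promyelocytes and 0.15 in granulocytes. Residuals from means of 3 libraries are tied to one another, so these values cannot settle whether the numbers pair the samples. A replicate block gave 1 chrM gene higher and 3 lower in promyelocytes, 14 higher in granulocytes, 12 higher responses between cell types, and 3 list genes higher in promyelocytes. The block with the GC content and length correction, an alternative chosen after seeing the data, gave 9 higher in granulocytes and 11 higher between cell types.

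Leaving out 1 library gave 1 to 2 chrM genes higher and 3 to 4 lower in promyelocytes, 12 to 20 higher in granulocytes, and 12 to 18 higher and 0 to 1 lower between cell types. The lists gave 1 to 6 higher and 4 to 13 lower in promyelocytes. The log2 fold change in promyelocytes ran from -0.01919 to 0.03755 for MT-CO1 and from -0.04994 to 0.2938 for MT-ND6. In percentage points, the difference in share ran from -3.867e-05 to 4.599e-06 (rRNA) and -0.0007176 to 0.001031 (tRNA) in promyelocytes, and from -0.1151 to 0.5344 (all chrM), -0.1175 to 0.5322 (mRNA) and -2.079e-05 to 4.923e-05 (rRNA) in granulocytes. Per nuclear read pair, the promyelocyte tRNA difference was 1.742e-06. Differences in mRNA make-up that changed sign were small: in promyelocytes MT-ND2 ran from -0.1173 to 0.3354, MT-CO2 from -0.204 to 0.1147, MT-CO3 from -0.03596 to 0.5357, MT-ND4 from -0.2821 to 0.1963 and MT-ND5 from -0.2658 to 0.09565, and in granulocytes MT-ND2 ran from -0.06028 to 0.2033, MT-CO2 from -0.01812 to 0.1119, MT-ATP6 from -0.294 to 0.1767 and MT-ND5 from -0.0819 to 0.26. Against complex IV mRNAs only, MT-ND2 was -0.09055 and MT-CO3 -0.5735 in promyelocytes, and MT-ATP6 was 0.1733 in granulocytes.

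The sparser tRNAs, with as few as 8 read pairs in a library, and the rRNAs are limited by depth. With 3 libraries a group, shares and ratios cannot reach a p under 0.10.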
